A study of Mus musculus with 26 samples.

Results

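The comparison described here sets mouse embryonic stem cells (ESCs) that had lost the nuclear receptor ERR beta and were given it back against cells that never lost it. The 4 libraries titled KO/ERRb-wt came from clones 8-3 and 8-4 and the 4 libraries titled WT/Mock from clones 5-2 and 5-5, together 8 of the 26 libraries and 4 of the 14 clones of the series. KO/ERRb-wt cells were ERR beta -/- and carried a doxycycline-inducible construct for wild type ERR beta. KO/Mock cells, whose clones 12-1 and 12-3 are given beside the comparison, were ERR beta -/- with no ectopic receptor. WT/Mock cells were wild type with no ectopic receptor. All of them, WT/Mock included, were seeded at 1600 cells on poly-L-ornithine and laminin and received doxycycline at 2 µg/ml for 3 days, in serum-free N2B27 medium that held PD (a MEK inhibitor) and CH (which blocks GSK3). LIF is named in the growth protocol and not in the design text. The labels do not say which part of Esrrb was disrupted, nor how the clones are related, so what a clone was before the construct went in and what the returned receptor did or did not restore cannot be told apart. The 2 libraries of a clone were summed and the clone was the replicate (n = 2 per group). The p-values therefore measure the spread between clones of a group, estimated over all 14 clones of the 7 groups and not from the 4 compared clones alone.

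ERR beta, encoded by Esrrb, is an orphan nuclear receptor that binds DNA at an extended half-site and recruits coactivators such as Ncoa3. In mouse ESCs it belongs to the group of transcription factors that hold the naive state, and inhibition of GSK3 is known to raise its expression. Closely related receptors control genes of energy metabolism. Esrrb reads were counted over the whole gene and do not separate the endogenous gene from the construct. Esrrb (chr12:86361117-86521628) had 429 and 410 CPM (counts scaled to a common effective library size) in the KO/ERRb-wt clones, 277 and 276 CPM in the KO/Mock clones, and 603 and 560 CPM in the WT/Mock clones. The rescued clones therefore held more Esrrb RNA than the KO/Mock clones and less than the WT/Mock clones, with no overlap between groups. The log2 fold change of KO/ERRb-wt over WT/Mock was -0.47 ± 0.07 (standard error), with an adjusted p of 0.00375 in edgeR's quasi-likelihood test with Benjamini-Hochberg adjustment, the test and the ± used for every fold change below. Its adjusted p was 0.0545 without clone 5-2 and 0.0503 without clone 8-4.

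Depth was even across the comparison. Library totals ran from 22385740 to 25233391 counts and clone totals from 46707156 to 48245061 counts. The 10 ESC markers summed to 4138 and 3872 CPM in the KO/ERRb-wt clones, 3589 and 3683 CPM in the KO/Mock clones, and 4325 and 4505 CPM in the WT/Mock clones, with none at 0. The 9 markers of mesoderm and primitive streak summed to 68.4 and 50.5 CPM in the KO/ERRb-wt clones, 68.8 and 63.6 CPM in the KO/Mock clones, and 18.2 and 26.4 CPM in the WT/Mock clones. T, the largest part of these sums, had 51.2 and 34.5 CPM on the scale of single genes in KO/ERRb-wt, 52.7 and 47.0 CPM in KO/Mock, and 8.73 and 13.1 CPM in WT/Mock. The 10 fibroblast markers summed to 144 and 188 CPM in the KO/ERRb-wt clones, 195 and 175 CPM in the KO/Mock clones, and 91.2 and 109 CPM in the WT/Mock clones, mostly from Vim, the intermediate filament vimentin. Of the 5 of these markers that were tested, Vim was higher and Tagln, the smooth muscle protein transgelin, was lower, with 0.662 and 0.506 CPM in KO/ERRb-wt, 0.387 and 0.454 CPM in KO/Mock, and 6.11 and 2.23 CPM in WT/Mock. The defining fibroblast genes Col1a1 and Col1a2 were at 0.221 CPM or less in both KO/ERRb-wt clones. Summed markers of primitive endoderm (541 to 604 CPM against 616 to 664 CPM), trophoblast (119 to 146 CPM against 149 to 153 CPM) and neuroectoderm (72.7 to 74.98 CPM against 82.7 to 86.6 CPM) were slightly lower in the KO/ERRb-wt clones than in the WT/Mock clones. Single members went both ways at an adjusted p below 0.05. Of 15 tested primitive endoderm markers, Lamb1 and Cubn were higher, and Lamc1 and the chromosome 14 gene Gata4 were lower. Krt7 and Krt18 were lower among 10 tested trophoblast markers, and Sox1 among 6 of neuroectoderm. Of all tested genes, 4.49% were higher and 5.79% lower. In bulk RNA, fewer cells of a type and less RNA per cell cannot be told apart, and the part these markers play in the results was not tested.

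Of 15238 genes tested, 1567 differed between KO/ERRb-wt and WT/Mock clones at an adjusted p below 0.05 (10.3%). Of these, 684 were higher (4.49% of those tested) and 883 lower (5.79%) in KO/ERRb-wt. Chromosome 14 held 312 of the calls, 310 of them lower, and is described apart from the rest. Outside it, 1255 of 14725 genes were called (8.52%), 682 higher and 573 lower. The balance of directions moved with the fit: with only the 4 compared clones in it, 569 genes were higher and 1156 lower in all, and 566 higher and 837 lower outside chromosome 14. With TMM factors from genes outside chromosome 14, 607 were higher and 600 lower outside it. In the fit of all 14 clones the difference was at least 2-fold for 133 higher and 226 lower genes. The median log2 fold change there was 0.02, with lower and upper quartiles of -0.22 and 0.19. These counts rested on 2 of the 4 clones: outside chromosome 14, 86 genes were called without WT/Mock clone 5-2 and 116 without KO/ERRb-wt clone 8-4, against 986 without WT/Mock clone 5-5 and 1216 without KO/ERRb-wt clone 8-3. Of the 34 named genes outside chromosome 14 with the largest differences or smallest p, 18 kept their call without clone 5-2 and 21 without clone 8-4.

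The genes furthest above WT/Mock were mostly weakly expressed. Rimbp2, which encodes a RIM-binding protein of presynaptic active zones, had 2.95 and 2.42 CPM in the KO/ERRb-wt clones, 6.35 and 5.24 CPM in the KO/Mock clones, and 0.320 and 0.288 CPM in the WT/Mock clones (log2 fold change 3.13 ± 0.51, adjusted p 0.00495). Pdzrn4, a PDZ and RING finger protein, had 2.85 and 2.40 CPM in KO/ERRb-wt, 7.94 and 5.78 CPM in KO/Mock, and 0.260 and 0.453 CPM in WT/Mock (2.88 ± 0.55, adjusted p 0.0107). Both genes stood between the KO/Mock and the WT/Mock clones. Akap6, an anchoring protein for protein kinase A, had 8.43 and 9.08 CPM in KO/ERRb-wt, 5.23 and 4.61 CPM in KO/Mock, and 0.739 and 2.10 CPM in WT/Mock (2.63 ± 0.45, adjusted p 0.00585). Here the rescued clones lay above the KO/Mock clones as well. Prickle1, a planar cell polarity protein, had 5.54 and 10.4 CPM in KO/ERRb-wt, 23.2 and 19.02 CPM in KO/Mock, and 0.939 and 1.75 CPM in WT/Mock (2.56 ± 0.46, adjusted p 0.00773). Rimbp2, Pdzrn4 and Akap6 were not called without clone 5-2, and Prickle1 was not called without clone 5-2 or without clone 8-4.

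Osm encodes oncostatin M, a cytokine of the LIF family, and had 3.59 and 6.66 CPM in KO/ERRb-wt, 9.46 and 10.9 CPM in KO/Mock, and 1.22 and 1.48 CPM in WT/Mock (log2 1.92 ± 0.42, adjusted p 0.0180). Kitl, the ligand of the receptor Kit, had 1.83 and 2.95 CPM in KO/ERRb-wt, 7.69 and 6.27 CPM in KO/Mock, and 0.759 and 0.701 CPM in WT/Mock (1.70 ± 0.25, adjusted p 0.00228). Prlr, the prolactin receptor, had 4.66 and 3.71 CPM in KO/ERRb-wt, 4.05 and 4.05 CPM in KO/Mock, and 1.18 and 0.927 CPM in WT/Mock (1.99 ± 0.24, adjusted p 0.000756). Prlr and Kitl were called whichever clone was left out, while Osm was called only when KO/ERRb-wt clone 8-3 was the one removed. Sptlc3, a subunit of serine palmitoyltransferase, had 2.21 and 2.07 CPM in KO/ERRb-wt, 2.75 and 2.75 CPM in KO/Mock, and 0.360 and 0.474 CPM in WT/Mock (2.35 ± 0.29, adjusted p 0.000888). Lipc, the hepatic lipase, had 1.59 and 2.63 CPM in KO/ERRb-wt, 1.89 and 1.75 CPM in KO/Mock, and 0.380 and 0.577 CPM in WT/Mock (2.14 ± 0.44, adjusted p 0.0142). For Prlr, Sptlc3 and Lipc the rescued and the KO/Mock clones lay close together, and both groups lay above WT/Mock. Gbp4 (2.62 ± 0.39) and Irgm1 (1.82 ± 0.45), both interferon-inducible GTPases, Slfn9 (1.72 ± 0.21), Has3 (a hyaluronan synthase, 1.76 ± 0.40), the transcription factor Sp8 (1.68 ± 0.39) and T2 (1.66 ± 0.36) completed the 15 highest. Fam169b, at higher expression, had 18.3 and 18.1 CPM in KO/ERRb-wt, 23.02 and 21.7 CPM in KO/Mock, and 8.55 and 9.35 CPM in WT/Mock (1.02 ± 0.11, adjusted p 0.000407).

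The gene furthest below WT/Mock was the imprinted noncoding RNA H19 (chr7:142575530-142578146), which is transcribed from the maternal allele. It had 3.35 and 1.07 CPM in KO/ERRb-wt, 9.55 and 6.51 CPM in KO/Mock, and 34.8 and 45.1 CPM in WT/Mock (log2 -4.17 ± 0.88, adjusted p 0.0165). The rescued clones were thus below the KO/Mock clones and did not approach WT/Mock. Fkbp6, a chaperone of the germline piRNA pathway, had 3.93 and 5.38 CPM in KO/ERRb-wt, 7.89 and 7.70 CPM in KO/Mock, and 25.2 and 25.1 CPM in WT/Mock (-2.43 ± 0.22, adjusted p 0.000272). The X-linked gene Xlr3a had 0.381 and 0.527 CPM in KO/ERRb-wt, 1.32 and 1.02 CPM in KO/Mock, and 2.76 and 7.54 CPM in WT/Mock (-3.50 ± 0.57, adjusted p 0.00491). The 2 WT/Mock clones were far apart for Xlr3a, while Fkbp6 was called whichever clone was left out. H19 was not called without clone 5-2 (adjusted p 0.0752) or clone 8-4 (0.155), nor Xlr3a without clone 8-4 (0.0504).

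Itga5, the fibronectin receptor subunit, had 13.8 and 12.6 CPM in KO/ERRb-wt, 9.05 and 11.6 CPM in KO/Mock, and 42.2 and 32.8 CPM in WT/Mock (log2 -1.50 ± 0.16, adjusted p 0.000476). Icam1, an adhesion molecule of the immunoglobulin family, had 4.39 and 3.92 CPM in KO/ERRb-wt, 6.57 and 5.86 CPM in KO/Mock, and 19.2 and 13.7 CPM in WT/Mock (-1.98 ± 0.27, adjusted p 0.00195). Vwf, von Willebrand factor, had 2.93 and 2.15 CPM in KO/ERRb-wt, 1.91 and 2.01 CPM in KO/Mock, and 12.5 and 9.13 CPM in WT/Mock (-2.09 ± 0.23, adjusted p 0.000476). In these genes the rescued and the KO/Mock clones all lay well below WT/Mock. The rescued clones were above the KO/Mock clones for Itga5 and Vwf and below them for Icam1. None of these gaps was called in KO/ERRb-wt against KO/Mock (adjusted p 0.256, 0.417 and 0.280). Cyr61, a matricellular protein, had 1.79 and 1.56 CPM in KO/ERRb-wt, 2.12 and 1.97 CPM in KO/Mock, and 10.2 and 6.00 CPM in WT/Mock (-2.28 ± 0.29, adjusted p 0.00119). The calcium-dependent protease Capn2 had 3.23 and 2.76 CPM in KO/ERRb-wt, 2.75 and 2.27 CPM in KO/Mock, and 13.9 and 10.3 CPM in WT/Mock (-2.02 ± 0.24, adjusted p 0.000682). Itga5, Icam1, Vwf, Cyr61 and Capn2 were called whichever clone was left out. Col9a2 (-2.10 ± 0.46), Krt17 (-1.89 ± 0.39), Got1l1 (-1.93 ± 0.40), Nxf3 (-1.85 ± 0.32), Zc3h6 (-1.83 ± 0.47) and Dtx4 (-1.83 ± 0.33), with Eras and Was, which are described with the X chromosome, completed the 15 lowest. Igf2r, the imprinted receptor that clears IGF2, had 76.9 and 74.3 CPM in KO/ERRb-wt, 94.8 and 82.0 CPM in KO/Mock, and 139 and 127 CPM in WT/Mock (-0.81 ± 0.08, adjusted p 0.000272).

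**Figure D1:**
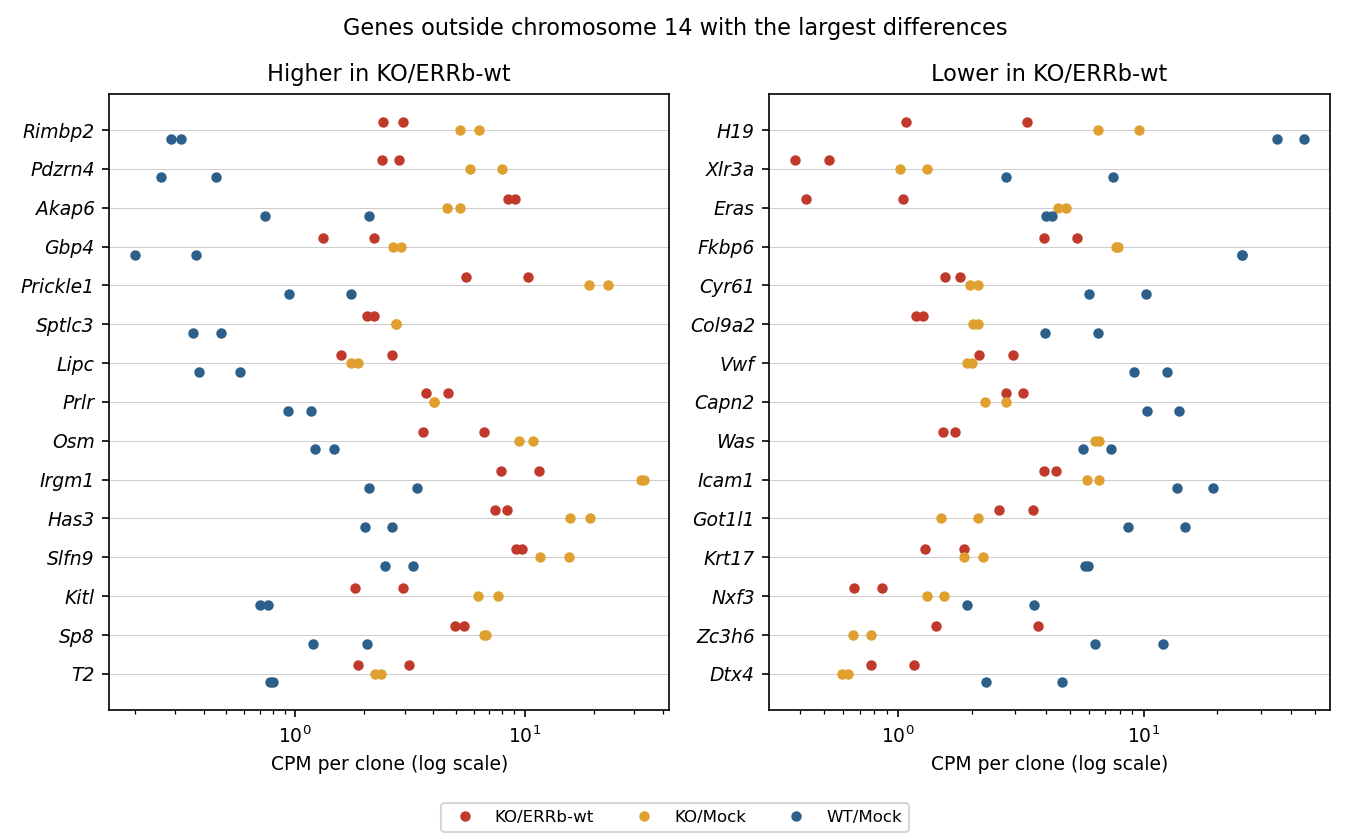
Expression in CPM (log scale) of the 15 highest and 15 lowest genes outside chromosome 14, ordered from top to bottom by log2 fold change, with 1 point per clone for KO/ERRb-wt (red), KO/Mock (yellow) and WT/Mock (blue). In every gene shown both red points lie on the same side of both blue points, as the rule for naming them required; in H19 the red points are at 3.35 and 1.07 CPM and the blue points at 34.8 and 45.1 CPM.

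The gene lists below were described by the number of members called, beside the 4.49% higher and 5.79% lower of all tested genes. Of the list members taken by the naming rule, Eras, Igf2r, Taf7l, Slc2a3, Spry2, Bmpr1a, Sucla2 and Glud1 were called whichever clone was left out. So was Lamb1, a marker of primitive endoderm. The calls of the others were lost without at least 1 clone, in most cases 5-2 or 8-4. Among 16 tested genes of naive pluripotency, 1 was higher and 4 were lower. Nanog, a central naive factor, had 742 and 678 CPM in KO/ERRb-wt, 544 and 582 CPM in KO/Mock, and 912 and 925 CPM in WT/Mock (log2 -0.37 ± 0.06, adjusted p 0.00547). The rescued clones lay between the other groups for Nanog as they did for Esrrb. The other lower members were Prdm14, a repressor that guards the naive state and was at 15.8 and 13.7 CPM in KO/ERRb-wt against 21.9 and 21.8 CPM in WT/Mock, and Klf5, a chromosome 14 gene. Gbx2 was higher, with 5.74 and 9.89 CPM in KO/ERRb-wt, 7.39 and 5.50 CPM in KO/Mock, and 2.96 and 4.47 CPM in WT/Mock (1.07 ± 0.27, adjusted p 0.0296). Klf4 had 99.1 and 85.3 CPM in KO/ERRb-wt, 73.6 and 70.1 CPM in KO/Mock, and 120 and 133 CPM in WT/Mock, and was not called (adjusted p 0.0726).

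Of 15 general pluripotency genes, 2 were higher and 1, Eras, was lower. The RNA-binding protein Lin28a had 323 and 390 CPM in KO/ERRb-wt, 466 and 440 CPM in KO/Mock, and 215 and 274 CPM in WT/Mock (log2 0.54 ± 0.12, adjusted p 0.0179). The zinc finger factor Sall4 had 322 and 343 CPM in KO/ERRb-wt, 423 and 394 CPM in KO/Mock, and 223 and 283 CPM in WT/Mock (0.40 ± 0.11, adjusted p 0.0414). Of 16 formative and primed genes, 2 were higher and none lower. The de novo DNA methyltransferase Dnmt3b had 218 and 342 CPM in KO/ERRb-wt, 471 and 475 CPM in KO/Mock, and 138 and 162 CPM in WT/Mock (0.90 ± 0.25, adjusted p 0.0453). Lef1, a transcription factor of the Wnt pathway, had 43.6 and 54.8 CPM in KO/ERRb-wt, 51.7 and 46.5 CPM in KO/Mock, and 17.6 and 26.8 CPM in WT/Mock (1.15 ± 0.33, adjusted p 0.0485). Dnmt3b lay between the other groups, whereas Lef1 overlapped the KO/Mock clones. Sall4 and Dnmt3b kept their calls in 1 of the 4 fits that left out a clone, and Lef1 in none. None of 8 tested markers of mesoderm and primitive streak was called by edgeR or DESeq2 (2 had an unadjusted p below 0.05), and limma-voom on libraries called 1. All 8 had a log2 fold change above 0, with a median of 0.71, beside 7821 of all 15238 tested genes above 0. Both KO/ERRb-wt clones exceeded both WT/Mock clones for T, the mesoderm factor Brachyury (log2 1.97 ± 0.78, adjusted p 0.130). The same held for 33.3% of all tested genes outside chromosome 14.

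Among 9 genes of DNA methylation, 1 was higher and 2 were lower. Dnmt3l, the cofactor of the de novo methyltransferases, had 181 and 223 CPM in KO/ERRb-wt, 342 and 349 CPM in KO/Mock, and 89.9 and 109 CPM in WT/Mock (log2 1.02 ± 0.19, adjusted p 0.00938). Zfp57, a zinc finger protein that keeps methylation at imprinted regions, had 275 and 285 CPM in KO/ERRb-wt, 178 and 192 CPM in KO/Mock, and 456 and 402 CPM in WT/Mock (-0.62 ± 0.13, adjusted p 0.0175). Both genes stood between KO/Mock and WT/Mock, in opposite directions. The dioxygenase Tet1 was lower by a small amount (-0.22 ± 0.06, adjusted p 0.0371), and its call was lost whichever clone was left out. Of 25 imprinted genes, H19 and Igf2r were lower and none was higher, a share of 8.00% called that is close to that of all genes. Of 20 germline genes, 2 were higher and 6 lower, and without chromosome 14 genes 2 of 19 were higher and 5 lower. Taf7l, a germ cell TFIID subunit, had 0.421 and 0.422 CPM in KO/ERRb-wt, 0.523 and 0.498 CPM in KO/Mock, and 2.20 and 1.55 CPM in WT/Mock (-2.14 ± 0.29, adjusted p 0.00141). Sycp3, a component of the synaptonemal complex, had 8.95 and 7.76 CPM in KO/ERRb-wt, 5.82 and 7.49 CPM in KO/Mock, and 18.4 and 15.5 CPM in WT/Mock (-1.02 ± 0.19, adjusted p 0.00914). Zp3, a zona pellucida glycoprotein, went the other way, with 4.15 and 7.74 CPM in KO/ERRb-wt, 17.2 and 14.8 CPM in KO/Mock, and 1.84 and 2.95 CPM in WT/Mock (1.31 ± 0.28, adjusted p 0.0177).

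Metabolic lists held calls in both directions. Of 21 genes of glycolysis and glucose transport, 6 enzymes were higher (28.6%) and 1 transporter was lower. Slc2a3, the high-affinity glucose transporter GLUT3, had 1938 and 1593 CPM in KO/ERRb-wt, 1208.5 and 1330.4 CPM in KO/Mock, and 2998 and 2703.5 CPM in WT/Mock (log2 -0.69 ± 0.10, adjusted p 0.00202). Pfkl, a phosphofructokinase subunit, had 215 and 203 CPM in KO/ERRb-wt, 219 and 229 CPM in KO/Mock, and 141 and 162 CPM in WT/Mock (0.46 ± 0.09, adjusted p 0.00989). Pkm, pyruvate kinase, was higher by 0.31 ± 0.07 (adjusted p 0.0177) and Eno1, enolase, by 0.35 ± 0.08 (adjusted p 0.0201), although 92.8% of the exonic bases of Eno1 also belong to another gene entry on the same strand. The calls of Pkm and Eno1 held in 1 of the 4 fits that left out a clone, and that of Slc2a3 in all 4. Of 22 TCA cycle genes 3 were lower, among them Suclg2, a subunit of succinate-CoA ligase, with 85.1 and 86.7 CPM in KO/ERRb-wt, 70.2 and 80.0 CPM in KO/Mock, and 167 and 147 CPM in WT/Mock (-0.87 ± 0.20, adjusted p 0.0235). Of 20 genes of fatty acid oxidation, Cpt1a, which controls the entry of fatty acids into mitochondria, was lower, with 68.2 and 51.9 CPM in KO/ERRb-wt, 38.1 and 44.2 CPM in KO/Mock, and 130 and 97.2 CPM in WT/Mock (-0.92 ± 0.24, adjusted p 0.0339). Of 22 genes of cholesterol and fatty acid synthesis 5 were lower and none higher, including Srebf2, the master regulator of sterol synthesis (-0.35 ± 0.09, adjusted p 0.0319), and its target Insig1 (-0.55 ± 0.12, adjusted p 0.0180). Without chromosome 14 genes, 4 of 21 were lower. Of 13 glutamine and glutamate genes, the transporter Slc38a2 was higher (0.48 ± 0.12, adjusted p 0.0269), and Got1, the cytosolic aspartate aminotransferase, was lower (-0.33 ± 0.09, adjusted p 0.0466) together with Glud1 on chromosome 14.

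Of 12 LIF and STAT3 genes, Osm and Socs2, a cytokine feedback inhibitor, were higher (Socs2 log2 0.51 ± 0.13, adjusted p 0.0368), and the kinase Jak1 was lower (-0.57 ± 0.12, adjusted p 0.0147). Of 11 BMP and Id genes 3 were lower, namely the receptor Bmpr1a on chromosome 14, the inhibitory Smad6 (-0.82 ± 0.22, adjusted p 0.0377) and Id2, an inhibitor of DNA binding (-1.23 ± 0.29, adjusted p 0.0255). Of 16 genes of the ATF4 response and serine synthesis, the stress-induced Atf3 (-1.77 ± 0.49, adjusted p 0.0428), Ddit3 (-1.05 ± 0.28, adjusted p 0.0371) and Chac1 (-1.27 ± 0.37, adjusted p 0.0497) were lower. Atf3 had 3.03 and 1.43 CPM in KO/ERRb-wt, 1.43 and 1.45 CPM in KO/Mock, and 9.33 and 5.89 CPM in WT/Mock, with a wide spread within both clonal pairs of the comparison. Of 13 interferon pathway genes, Irgm1 and Ifitm1 were higher (Ifitm1 0.72 ± 0.13, adjusted p 0.00958) and Irf9, a transcription factor of the interferon response on chromosome 14, was lower (-0.52 ± 0.10, adjusted p 0.0106), though not after that chromosome's own scaling (0.07 ± 0.10). None of 14 Wnt targets, 15 p53 targets or 10 TFIIH subunits was called by edgeR. At an unadjusted p below 0.05 there were 7 Wnt targets (6 of them higher), 2 p53 targets (none higher) and 3 TFIIH subunits (all higher). DESeq2 called 1 Wnt target and none of the others. Limma-voom on libraries called 4 Wnt targets, 2 p53 targets and 1 TFIIH subunit. Axin2, a direct Wnt target, had 125 and 129 CPM in KO/ERRb-wt, 157 and 145 CPM in KO/Mock, and 82.5 and 99.5 CPM in WT/Mock (adjusted p 0.0757). Of 13 tested genes of ERR receptors and their cofactors, the coactivator Ncoa3 alone was called, with 192 and 196 CPM in KO/ERRb-wt, 213 and 225 CPM in KO/Mock, and 244 and 228 CPM in WT/Mock (-0.28 ± 0.08, adjusted p 0.0420). That call was lost whichever clone was left out.

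Lists of contractile and epithelial genes held 1 higher and 5 lower members. Of 11 tested muscle-type genes, 1 was higher and 3 were lower. Des, the muscle intermediate filament desmin, had 10.8 and 6.56 CPM in KO/ERRb-wt, 2.78 and 4.15 CPM in KO/Mock, and 35.8 and 22.1 CPM in WT/Mock (log2 -1.74 ± 0.34, adjusted p 0.0115). Tpm1, a tropomyosin, had 52.6 and 49.4 CPM in KO/ERRb-wt, 67.8 and 72.7 CPM in KO/Mock, and 94.0 and 72.7 CPM in WT/Mock (-0.71 ± 0.12, adjusted p 0.00443). Myl7, an atrial myosin light chain, was higher, with 6.46 and 7.34 CPM in KO/ERRb-wt, 5.69 and 5.91 CPM in KO/Mock, and 2.84 and 3.67 CPM in WT/Mock (1.08 ± 0.23, adjusted p 0.0160). Of 13 simple epithelial genes, Krt18, a keratin filament protein, was lower (-1.24 ± 0.25, adjusted p 0.0142), and so was Krt7 at 14 and 6 counts in KO/ERRb-wt against 53 and 47 counts in WT/Mock. Of 20 cell cycle and replication genes, the D-type cyclin Ccnd3 alone was called, with 74.6 and 62.0 CPM in KO/ERRb-wt, 49.7 and 49.2 CPM in KO/Mock, and 101 and 95.9 CPM in WT/Mock (-0.52 ± 0.11, adjusted p 0.0132).

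**Figure D2:**
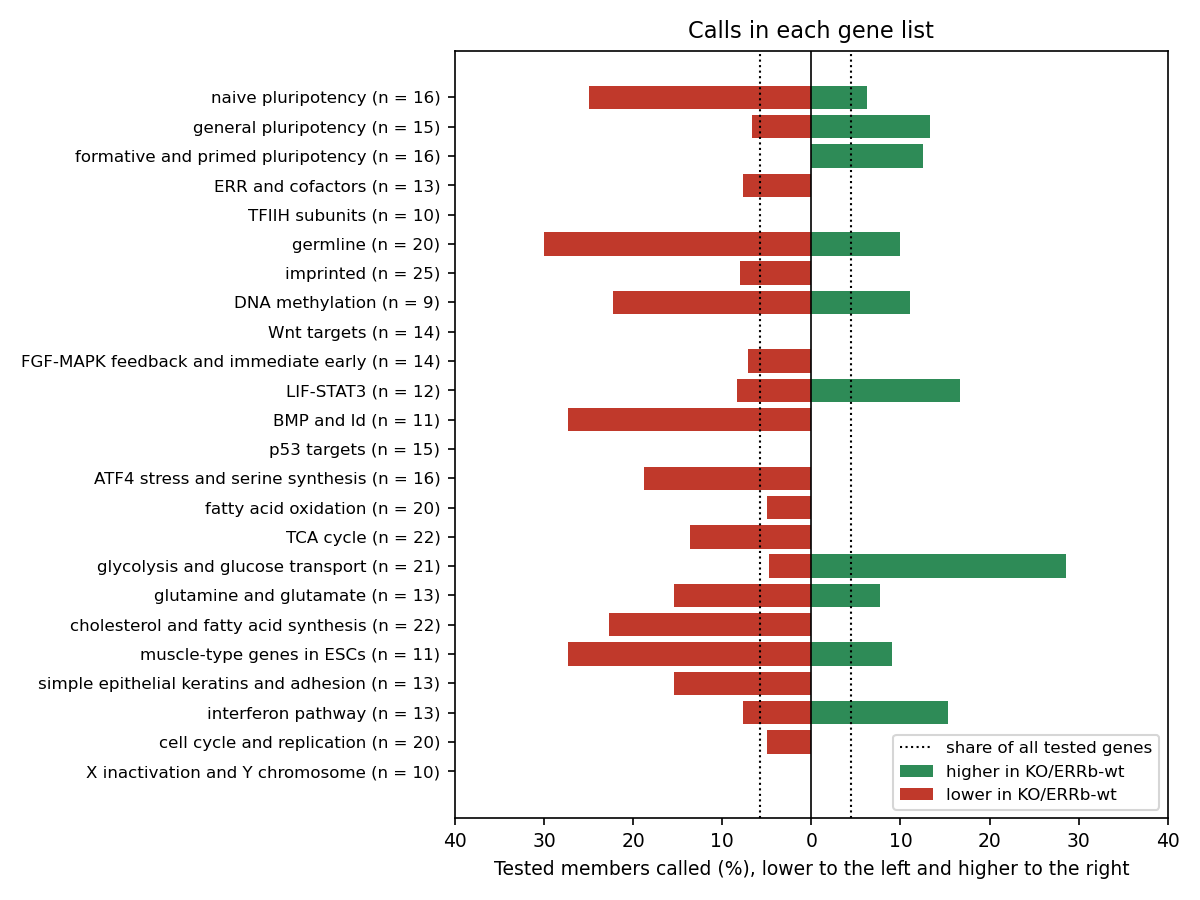
Percentage of the tested members of each gene list that were called lower (red, to the left) or higher (green, to the right) in KO/ERRb-wt than in WT/Mock clones, with dotted lines at the shares of all tested genes, 5.79% lower and 4.49% higher. Glycolysis and glucose transport has the longest green bar (28.6%) and germline the longest red bar (30%), and no bar is drawn for TFIIH subunits, Wnt targets, p53 targets or the X inactivation and Y chromosome list. The bars and dotted lines include chromosome 14 genes.

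Across the lists, 14 tested members lie on chromosome 14, of which 9 were lower and none higher, beside 60.4% lower of all tested genes of the chromosome. When chromosome 14 genes were scaled by factors computed from that chromosome alone, none of the 14 was lower and 1, the SOX factor Sox7, was higher (named after its value was seen). Klf5 had 63.2 and 56.2 CPM in KO/ERRb-wt, 46.4 and 46.1 CPM in KO/Mock, and 88.2 and 82.5 CPM in WT/Mock, a log2 fold change of -0.52 ± 0.09 (adjusted p 0.00633) that became 0.07 ± 0.09 (adjusted p 0.683) within its chromosome. Bmpr1a changed likewise to 0.03 ± 0.07, Sucla2, a TCA cycle enzyme, to -0.06 ± 0.07, Glud1 to 0.06 ± 0.05 and Spry2, a feedback inhibitor of FGF signalling, to -0.14 ± 0.13. Fdft1, of the cholesterol list, changed from -0.82 ± 0.13 to -0.24 ± 0.13. Piwil2, of the germline list, changed from -0.67 ± 0.11 to -0.09 ± 0.11. Outside chromosome 14, 23 of 396 tested list members were higher and 38 lower, beside 4.63% higher and 3.89% lower of all tested genes there. The lists were chosen with earlier results of these data known, and this difference was not tested.

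Promoters of 300 bases, from 250 before to 50 after an annotated transcription start, were taken from RefSeq on GRCm38.p6. Such a start need not be the outer end of the gene. Of the 97 called named genes, 73 matched at least 1 promoter by symbol. The ERR element was searched on both strands as TCAAGGTCA and as its core AAGGTCA, which lies within it (TGACCTTGA and TGACCTT on the other strand). The core is held by 1550 of all 32851 promoters in the table (4.72%) and the longer form by 139 (0.423%). Of the 73 genes, 6 had a matched promoter with the core and none had one with the longer form. That count is per gene and the 4.72% is per promoter, so they are not like for like. Of the 6, 4 are shown, for the 3 lower genes outside chromosome 14 and the higher gene Lipc, to let the element be seen in its surroundings. Capitals mark the core on either strand.
Zfp57, chr17:37002275-37002574, plus strand: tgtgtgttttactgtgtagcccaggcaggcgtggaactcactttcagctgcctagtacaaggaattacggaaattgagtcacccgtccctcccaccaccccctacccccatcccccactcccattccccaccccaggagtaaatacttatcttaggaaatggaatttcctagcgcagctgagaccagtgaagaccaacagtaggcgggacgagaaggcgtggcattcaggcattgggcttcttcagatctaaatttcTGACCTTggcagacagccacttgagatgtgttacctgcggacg
Ccnd3, chr17:47504801-47505100, plus strand: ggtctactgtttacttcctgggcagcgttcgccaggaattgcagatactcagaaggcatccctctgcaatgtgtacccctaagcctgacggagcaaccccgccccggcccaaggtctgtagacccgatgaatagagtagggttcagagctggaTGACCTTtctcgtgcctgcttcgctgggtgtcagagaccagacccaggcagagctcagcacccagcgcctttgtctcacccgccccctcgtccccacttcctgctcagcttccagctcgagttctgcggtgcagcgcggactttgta
Got1, chr19:43524556-43524855, minus strand: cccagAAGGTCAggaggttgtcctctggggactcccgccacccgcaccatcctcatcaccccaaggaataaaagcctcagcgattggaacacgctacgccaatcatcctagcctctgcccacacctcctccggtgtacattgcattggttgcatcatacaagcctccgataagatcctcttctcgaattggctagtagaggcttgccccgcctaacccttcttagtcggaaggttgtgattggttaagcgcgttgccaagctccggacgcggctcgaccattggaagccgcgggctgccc
Lipc, chr9:70934759-70935058, minus strand: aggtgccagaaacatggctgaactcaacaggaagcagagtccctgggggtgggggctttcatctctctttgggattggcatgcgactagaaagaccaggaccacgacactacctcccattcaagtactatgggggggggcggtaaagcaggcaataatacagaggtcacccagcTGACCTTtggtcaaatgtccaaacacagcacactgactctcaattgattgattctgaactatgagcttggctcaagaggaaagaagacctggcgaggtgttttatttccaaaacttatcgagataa
In the Zfp57, Ccnd3 and Lipc promoters the core reads TGACCTT, on the strand opposite to the gene, and in Got1 it reads AAGGTCA. Zfp57 and Ccnd3, as given above, had their KO/ERRb-wt values between those of KO/Mock and WT/Mock, while in Got1 (145 and 122 CPM in KO/ERRb-wt, 124 and 127 CPM in KO/Mock, 183 and 154 CPM in WT/Mock) clone 8-4 lay below the KO/Mock clones. A match of these letters is a description of the sequence and was not tested for binding.

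Chromosome 14 stood apart from the other chromosomes in the comparison. Of its 513 tested genes, 310 were lower and 2 higher in KO/ERRb-wt (60.8% called), and 471 had a log2 fold change below 0. The median log2 fold change was -0.56, a ratio of 0.677, with lower and upper quartiles of -0.82 and -0.38. Chromosome 14 held 3.37% of the tested genes and 19.9% of the called ones. Its genes took 3.83% and 3.97% of all counts in the KO/ERRb-wt clones, 3.68% and 3.70% in the KO/Mock clones, and 5.36% and 5.58% in the WT/Mock clones. The medians relative to WT/Mock were -0.57 and -0.54 in KO/ERRb-wt clones 8-3 and 8-4, and -0.59 and -0.58 in the KO/Mock clones. The other 19 chromosomes with at least 100 tested genes had medians between -0.01 and 0.04. For 428 of the 513 genes (83.4%) both KO/ERRb-wt clones were below both WT/Mock clones, against 28.7% of the genes elsewhere. Without clone 5-2 the chromosome held 162 called genes and without clone 8-4 it held 171, all lower, and its median stayed between -0.58 and -0.55 whichever clone was left out.

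**Figure D3:**
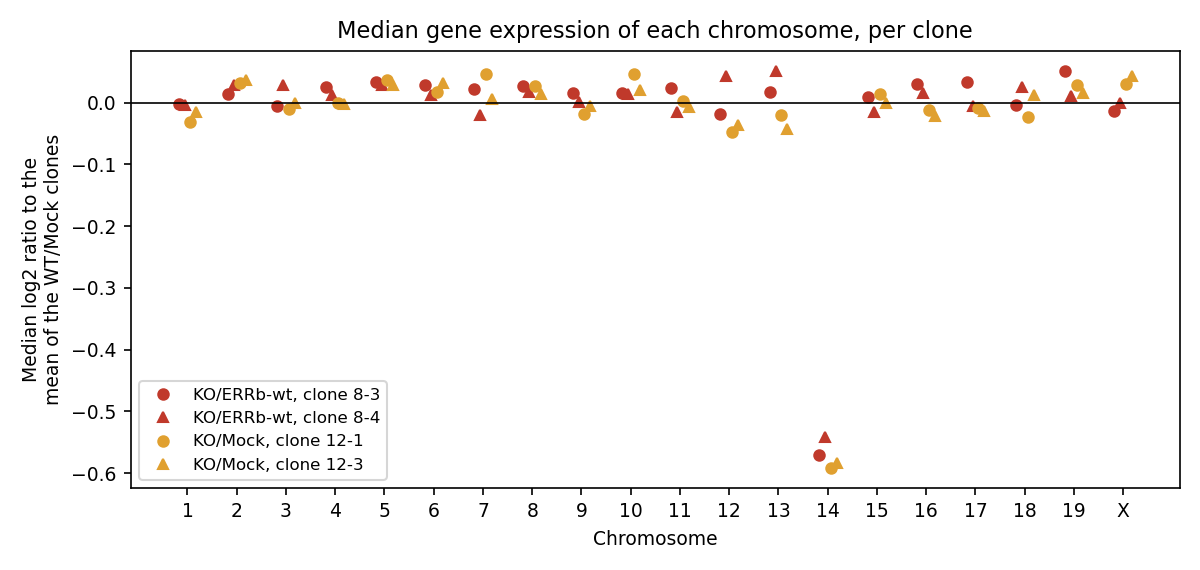
Median log2 ratio of gene expression to the mean of the WT/Mock clones for each chromosome with at least 100 tested genes, with 1 point per clone of KO/ERRb-wt (red) and KO/Mock (yellow). Chromosome 14 lies at -0.54 to -0.59 in the 4 clones while the points of the other chromosomes lie near 0.

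The lower level ran the length of chromosome 14. In each of its 15 intervals of 5 Mb with at least 10 tested genes, the median lay below -0.3, between -0.90 and -0.42, and 42.1% to 78.9% of the genes were called. Of 403 such intervals on other chromosomes, 2 had a median below -0.3, and none had more than 41.9% of its genes called. The lowest chromosome 14 interval, at 65 to 70 Mb, had 30 of 38 genes lower. By expression level, the median was -0.52 over the 128 most expressed genes of the chromosome, of which 113 were called, and -0.77 over the 129 least expressed, of which 30 were called.

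**Figure D4:**
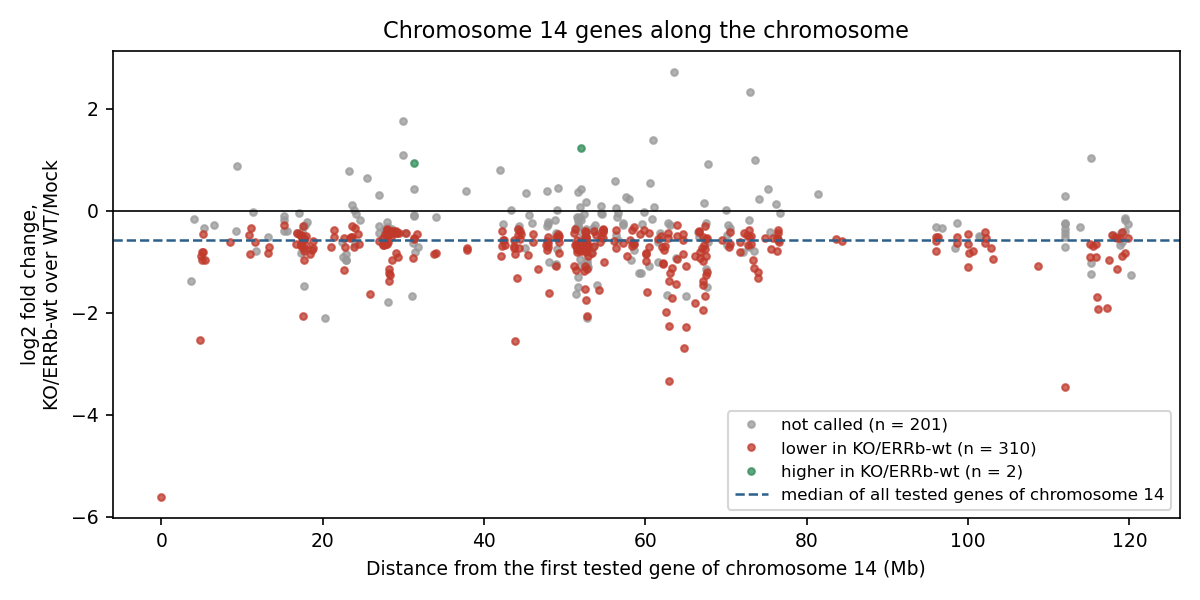
Log2 fold change of KO/ERRb-wt over WT/Mock for the 513 tested genes of chromosome 14, plotted by distance in Mb from the first of them, with lower genes in red, higher genes in green and the others in grey. The red points follow the dashed median of -0.56 from one end of the chromosome to the other, and the 2 green points are Fam25c and the predicted gene Gm10364.

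Scaling chromosome 14 by its own factors left 44 of its genes called (8.58%), 29 higher and 15 lower than their chromosome. The p-values of that fit were adjusted anew over all genes, which made the cutoff stricter for genes elsewhere. Sall4, for example, went from an adjusted p of 0.0414 to 0.0512 in edgeR's test. The share is therefore not comparable with the 8.52% called outside the chromosome in the main fit. Among the genes furthest below their chromosome, Clu, the secreted chaperone clusterin, had 4.23 and 2.63 CPM in KO/ERRb-wt, 3.69 and 4.57 CPM in KO/Mock, and 18.6 and 14.4 CPM in WT/Mock, a log2 fold change of -2.26 ± 0.28 against all genes and -1.68 ± 0.28 within the chromosome (adjusted p 0.00085 and 0.0119). Mbnl2, a splicing regulator, had 14.8 and 12.7 CPM in KO/ERRb-wt, 11.7 and 13.5 CPM in KO/Mock, and 61.9 and 41.3 CPM in WT/Mock (-1.32 ± 0.29 within the chromosome, adjusted p 0.0272). In Clu and Mbnl2 the KO/ERRb-wt clones overlapped the KO/Mock clones. Uggt2 (-1.11 ± 0.12), which checks glycoprotein folding, Cryl1 (-0.97 ± 0.19) and Dmtn (-0.67 ± 0.07), an actin-binding protein, followed.

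Other chromosome 14 genes had levels close to those of WT/Mock cells and so stood above their chromosome. Acin1, a factor of RNA splicing, had 284 and 298 CPM in KO/ERRb-wt, 332 and 314 CPM in KO/Mock, and 321 and 317 CPM in WT/Mock (log2 -0.13 ± 0.05 against all genes, adjusted p 0.129, and 0.45 ± 0.05 within the chromosome, adjusted p 0.00320). Pabpn1, a nuclear poly(A)-binding protein, had 203 and 219 CPM in KO/ERRb-wt, 222 and 218 CPM in KO/Mock, and 221 and 238 CPM in WT/Mock (-0.12 ± 0.07 and 0.46 ± 0.06, adjusted p 0.259 and 0.00479). For Pabpn1 and Acin1 the 3 groups differed by little on the common scale. Fam25c had 12.4 and 13.2 CPM in KO/ERRb-wt, 10.1 and 11.1 CPM in KO/Mock, and 5.17 and 8.22 CPM in WT/Mock, and was higher on both scales (0.93 ± 0.20 and 1.51 ± 0.20, adjusted p 0.0157 and 0.00418). Ccnb1ip1 (0.97 ± 0.13), a ubiquitin ligase of meiotic recombination, Spata13 (0.86 ± 0.11) and Cdadc1 (0.47 ± 0.12) were also above their chromosome. The count of 44 was among those that changed most with the clones used, at 8 without clone 5-2 and 3 without clone 8-4.

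An interval of the X chromosome held many genes that were lower in the rescued clones than in WT/Mock. It was chosen after its values were seen and is given as a description. In the interval of 5 to 10 Mb, 18 of 43 tested genes were lower and none higher (41.9% called), the highest share of the 403 intervals outside chromosome 14, and the median log2 fold change was -0.45. All 18 lie between Clcn5 and Wdr13 (chrX:7158412-8132858), where 31 genes were tested. In that stretch the median was -0.48 in KO/ERRb-wt and 0.18 in KO/Mock, both against the same WT/Mock clones. Against WT/Mock, 14 of the 31 genes were higher and 4 lower in KO/Mock, where 18% and 19.4% of all tested genes were. In the direct comparison of KO/ERRb-wt with KO/Mock, 15 of the 31 genes were lower and none higher, with a median of -0.86, beside 0.781% lower of all tested genes. The genes just beyond Wdr13 (Rbm3, Tbc1d25, Ebp, Porcn and Ftsj1) were not called, and the rest of the X chromosome, with 497 tested genes, had a median of 0.01 and 8.05% called. With a clone left out, 9 to 15 genes of the stretch were lower, with 9 both without clone 5-2 and without clone 8-4.

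Hdac6 (chrX:7930122-7947889), a cytoplasmic deacetylase of tubulin, had the smallest p outside chromosome 14. It had 38.9 and 42.2 CPM in KO/ERRb-wt, 93.7 and 88.5 CPM in KO/Mock, and 96.0 and 89.2 CPM in WT/Mock (log2 -1.19 ± 0.09, adjusted p 0.000104). KO/Mock and WT/Mock clones overlapped, and both rescued clones lay well below them. Its neighbour Eras (chrX:7924276-7928607), the Ras-like protein of ESCs, had 0.421 and 1.05 CPM in KO/ERRb-wt, 4.50 and 4.85 CPM in KO/Mock, and 4.02 and 4.24 CPM in WT/Mock (-2.49 ± 0.35, adjusted p 0.00191). Was, the Wiskott-Aldrich syndrome protein that activates actin assembly, had 1.52 and 1.71 CPM in KO/ERRb-wt, 6.57 and 6.36 CPM in KO/Mock, and 5.65 and 7.38 CPM in WT/Mock (-2.01 ± 0.31, adjusted p 0.00316). Each of these 3 genes was called whichever clone was left out. Tfe3, a transcription factor of the MiT family that acts in the exit from pluripotency, had 44.0 and 51.2 CPM in KO/ERRb-wt, 113 and 107 CPM in KO/Mock, and 66.7 and 73.0 CPM in WT/Mock (-0.55 ± 0.08, adjusted p 0.00262). Otud5, a deubiquitinase, had 56.3 and 59.0 CPM in KO/ERRb-wt and 77.3 and 77.8 CPM in WT/Mock (-0.43 ± 0.06, adjusted p 0.00202), and Clcn5, an endosomal chloride transporter, had 6.74 and 7.25 CPM in KO/ERRb-wt and 16.5 and 14.96 CPM in WT/Mock (-1.17 ± 0.17, adjusted p 0.00260). Not every gene of the stretch was lower: Ccdc22 had 26.2 and 25.8 CPM in KO/ERRb-wt and 21.3 and 24.7 CPM in WT/Mock (0.18 ± 0.08, adjusted p 0.193).

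**Figure D5:**
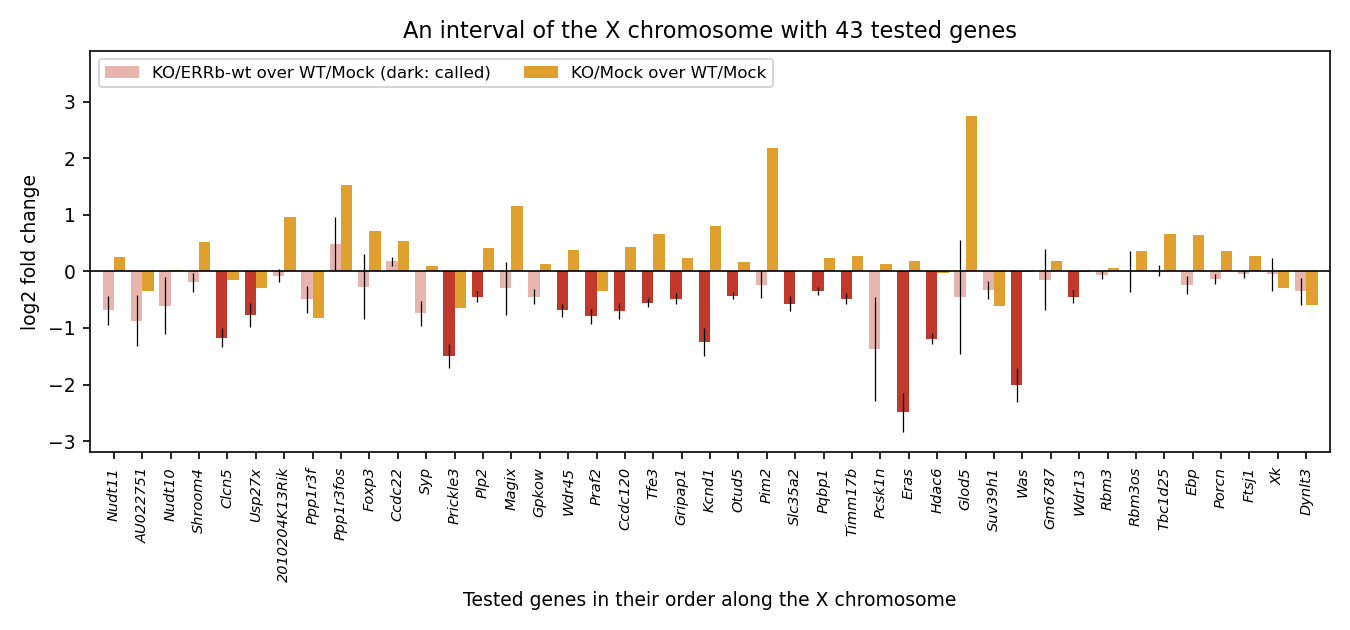
Log2 fold change over WT/Mock of the 43 tested genes of the X interval in their order along the chromosome, for KO/ERRb-wt (red, dark where called, with standard error bars) and KO/Mock (yellow). The dark red bars run downwards from Clcn5 to Wdr13, deepest for Eras at -2.49, Was at -2.01 and Prickle3 at -1.49, while the yellow bars lie on both sides of 0.

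Chromosome 18 had the next highest share of calls among whole chromosomes, with 68 called genes (17.3%), and 34 of the 68 were clustered protocadherins, the neural adhesion genes whose entries share their last exons. The counting assigned a read in a shared exon to each gene. Of 22 tested Pcdhg entries 19 were higher, by 0.22 to 0.25 on the log2 scale, with 5136 to 5320 counts each in clone 8-3, 4524 to 4699 in clone 8-4, 4184 to 4404 in clone 5-2 and 4066 to 4235 in clone 5-5. Each shared 41.7% to 47.2% of its exonic bases with another entry. Of 15 entries that begin with Pcdha, 14 were lower and Pcdha7-g was higher, and each shared 51.3% to 54.9%. Pcdha1 had 5 and 4 counts in KO/ERRb-wt, 7 and 7 counts in KO/Mock, and 23 and 18 counts in WT/Mock (-2.13 ± 0.47, adjusted p 0.0184). The 34 calls are therefore not separate measurements.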

How the data were processed

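Stranded libraries of total RNA, from which ribosomal RNA had been removed, were read from a single end over 100 bp, per the labels' protocols. The authors aligned reads with STAR 2.7.8a to mm10 and deposited integer counts per gene, per the submitters' processing notes; counting was done with featureCounts (2.0.1 per the file headers, 2.0.10 per those notes), over exons on the reverse strand, assigning a read in overlapping genes to each of them and leaving out reads aligned to several places, per the file headers. The table held 24421 genes.

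Counts were added up per clone and passed through filterByExpr and TMM scaling (factors 0.972 to 1.05), and edgeR 4.0.16 in R 4.3.3 fitted robust quasi-likelihood models to all 14 clones of 7 groups, with 7 residual degrees of freedom. KO/ERRb-wt was contrasted with WT/Mock, p-values were adjusted by the Benjamini-Hochberg method over 15238 genes, and a gene was called below 0.05. A standard error is the size of the log2 fold change (prior count 0.125) divided by the root of its F statistic. A second fit scaled chromosome 14 genes by TMM factors from that chromosome. CPM use TMM factors, except in the sums of markers, which use all counts of a clone. The sources do not say whether libraries came from separate cultures; the libraries of a clone differed by more than counting noise (chi-square over degrees of freedom 2.28 to 5.10) and were counted once. Rep numbers label libraries within clones. Deviations of same-numbered libraries correlated at 0.28 to 0.44 among clones 5-2, 5-5 and 8-4, and at -0.13 to 0.04 between these and clone 8-3. The pattern was not common to all clones compared, so the numbers were not taken to pair samples.

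Members and gene lists were chosen with earlier results of these data known. Named genes were Esrrb, and called genes whose mean log2 CPM reached 1, with both clones of one group above both of the other, and no predicted or ribosomal RNA gene: the 15 highest, 15 lowest and 5 of smallest p outside chromosome 14, the 6 highest and 6 lowest within chromosome 14 by its own scaling, and, with no minimum on expression, call or overlap, per list up to 4 members of smallest p. Genes named outside this rule were chosen after their values were seen. A gene that met the rule is not reported here. KO/ERRb-wt and KO/Mock are both set against the same WT/Mock clones, so their values are given side by side only. Alternatives were DESeq2 1.42.0, other scalings and filters, a fit of the 4 compared clones alone, limma-voom (limma 3.58.1) on libraries, and leaving out each clone or Rn45s. Promoters came from RefSeq on GRCm38.p6, the same build as mm10.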

Additional observations from a re-analysis of the deposited data

How the results depend on the processing

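The counts of called genes changed most with the clones used. Leaving out a clone gave 248 to 1451 called genes in all, 86 to 1216 outside chromosome 14, 162 to 243 on it and 3 to 48 within chromosome 14 after its own scaling, with the low values without WT/Mock clone 5-2 or KO/ERRb-wt clone 8-4. With 1 clone left in a group, its spread was taken from the other groups. Without clone 5-2, 245 of the 248 called genes were among the 1567, and without clone 8-4 283 of 287. The cause was not tested. The chromosome 14 median ran from -0.58 to -0.55 over these fits, and was -0.52 with no filter on low counts. DESeq2 called 1899 genes outside chromosome 14 and 72 within it after own scaling. Limma-voom on libraries called 1973 and 91 without a block and 1945 and 90 with the replicate block, 2278 in all. Since rep numbers were not taken to pair the samples, the fit with the block is a check only. Fits of the 4 compared clones alone gave 1725 calls, 33.0% of them higher against 43.7% of the 1567. Alternatives chosen after seeing the data gave 1012 genes outside chromosome 14 with p-values adjusted over those genes alone, and 1234 when genes sharing over 50% of their exonic bases were counted once. The 19 called Pcdhg entries share less than that and still count as 19 in the 1234. RLE scaling, TMM without chromosome 14 genes, no Rn45s and a minimum of 1 CPM kept all 4 counts within 1.5 times.

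Of 2050 fold changes of named genes under alternatives, 1791 kept their direction and side of the threshold, 190 lost their call and 67 gained one. The 2 that turned were at the detection floor: Zscan4d (-0.82) was between -3.05 and 2.23 and Col1a1 (-0.70) between -1.23 and 0.12 with a clone left out, the positive values without WT/Mock clone 5-5. Of the 97 called named genes, 33 kept their call without clone 5-2 and 35 without clone 8-4. Genes of a few counts per clone, such as Krt7 and the Pcdha entries, are limited by depth.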

Other observations

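Y-linked genes differed in level among the wild-type clones. Uty had 54.0 and 60.2 CPM in KO/ERRb-wt, 58.0 and 59.4 CPM in KO/Mock, and 11.2 and 27.1 CPM in WT/Mock clones 5-2 and 5-5. Ddx3y, an RNA helicase, had 37.2 and 36.4 CPM in KO/ERRb-wt, 46.7 and 46.9 CPM in KO/Mock, and 8.79 and 18.3 CPM in WT/Mock. None of 8 tested Y genes was called by edgeR (Uty log2 1.58 ± 1.34, adjusted p 0.478) or by DESeq2, and 1 had an unadjusted p below 0.05. Over all 14 clones the level of Uty reached down to 0 CPM, in 1 clone of another group whose other clone had 50.7 CPM. Both fits took their spread from all 14 clones, that pair included. The absence of a call therefore does not settle whether KO/ERRb-wt and WT/Mock differ in these genes.

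Sfmbt2, a Polycomb-associated gene on chromosome 2 with a large cluster of microRNAs in an intron, was higher, with 50.6 and 60.3 CPM in KO/ERRb-wt, 119 and 102 CPM in KO/Mock, and 19.9 and 26.6 CPM in WT/Mock (log2 1.26 ± 0.31, adjusted p 0.0287 in edgeR's test). All 35 tested microRNA entries of its 5 Mb interval lie within it, 34 of them had a log2 fold change above 0 and none was called, with at most 41 counts per clone. The interval's median log2 fold change of 1.08 was the highest of the 403 outside chromosome 14. Both patterns were picked after their values were seen.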
